A study of Mus musculus with 7 samples.

Results

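Hedgehog signalling was described in mouse nucleus pulposus, the soft centre of the disc between vertebrae, through 9 genes: the ligands Shh and Ihh, the receptor Ptch1, the signal transducer Smo, the transcription factors Gli1, Gli2 and Gli3, and the inhibitors Hhip and Sufu. They were chosen by gene symbol as the core of the pathway, and each was represented by 1 transcript cluster of the array, so all 9 were measured among 19505 named genes. RNA had been hybridised to Affymetrix arrays, with 1 array for each of 7 animals. The sample labels give the strain C57BL/6 for all 7 animals. The 4 wild-type animals (WT) were 13 months old and the 3 knockout animals (MCT4KO) 14 months old, so age and genotype cannot be told apart. MCT4KO animals lacked MCT4, the lactate exporter encoded by Slc16a3, in every tissue of the body, and the labels give no treatment. Both genotypes were described as littermates of heterozygous breeding pairs, with 10 backcross generations to C57Bl/6N, while the series text calls WT animals C57Bl/6 and knockout animals C57Bl/6N. Tissue from lumbar and caudal discs of 1 animal was pooled into 1 sample, so each value averages over many discs.

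In Hedgehog signalling a secreted ligand binds Patched-1 (Ptch1), which otherwise keeps Smoothened (Smo) silent. Released Smoothened acts through the primary cilium and turns GLI proteins from repressors into activators, and Gli1, Ptch1 and Hhip are themselves target genes, so their transcripts are commonly read as a measure of pathway output. Shh made by the notochord patterns the embryonic spine, and nucleus pulposus cells, which descend from the notochord, continue to make it after birth.

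Values are on the log2 scale as deposited by the authors, where a difference of 1 is a doubling, and changes are MCT4KO minus WT. The array's 5222 negative control features had medians of 5.91 to 6.08 on the 7 arrays, and a value at or below its array's control median is called at background here. The 95th percentile of the controls ran from 9.59 to 10.03, so the controls overlap with much of the measured range. None of the 9 genes lay above that percentile on every array, and above background here means only above the control median. Levels are compared between animals only, because features of different genes differ in brightness for the same amount of RNA.

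Slc16a3 served to check the labels: it read 13.35 to 13.61 in WT and 4.47 to 5.02 in MCT4KO, where all 3 animals were at background. The arrays had similar medians over named genes, 6.46 to 6.51. Of 16 measured markers of notochord and nucleus pulposus, 9 lay above the 95th percentile of the controls on every array: Krt8, Krt18, Krt19, Cd24a, Car3, Slc2a1, Cdh2, Sox9 and Acan. Foxa1, Car12, Aqp3 and Pax6 were at background on every array, and the notochord factor brachyury was not analysed here. Markers of other tissues were also read. Neutrophil and marrow markers (14 genes) had a mean of 5.56 to 8.78 in WT, highest in WT 2, and 4.97 to 5.43 in MCT4KO. Of these 14 genes 2 were higher in MCT4KO and 12 lower, with a median change of -1.01, and S100a8 had the largest change, -4.61. Macrophage markers (7 genes) had a mean of 6.43 to 7.19 in WT and 6.26 to 6.42 in MCT4KO. Of these 7 genes 4 were higher in MCT4KO and 3 lower, with a median change of 0.03, and Lyz2 had the largest change, -2.77. The notochord and nucleus pulposus markers had a mean of 12.06 to 12.19 in WT and 12.25 to 12.41 in MCT4KO. Of these 16 genes 13 were higher and 3 lower, with a median change of 0.16, and Col2a1 had the largest change, 1.32. The part of these differences in the results was not tested.

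None of the 9 Hedgehog genes differed between MCT4KO and WT in limma's moderated test at an adjusted p under 0.05, and none at an unadjusted p under 0.05, whereas 0.59% of all genes passed the first threshold and 12.7% the second. Adjusted p-values ran from 0.60 to 0.86 and the exact two-sided permutation p-values were 0.229 or more. In all 9 the groups overlapped, and over all genes 12% had groups that did not. At shares of this size, counts of 0 among 9 genes do not set them apart from other genes. Of the 9 changes 7 were below 0 and 2 above, where 47% of all genes were below 0, with a median of -0.15 against 0.02 over all genes. Ihh, Gli1, Gli2 and Hhip were at background on some or all arrays, so that their values do not bound a change. Of the 5 genes above background on every array, Ptch1, Smo, Gli3 and Sufu had a 95% interval within a 2-fold difference in either direction and Shh did not. Such an interval was found for 88.5% of all genes above background on every array. The 9 genes lie on 7 chromosomes, with Ihh and Gli2 on chromosome 1 and Ptch1 and Gli3 on chromosome 13.

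**Figure D1:**
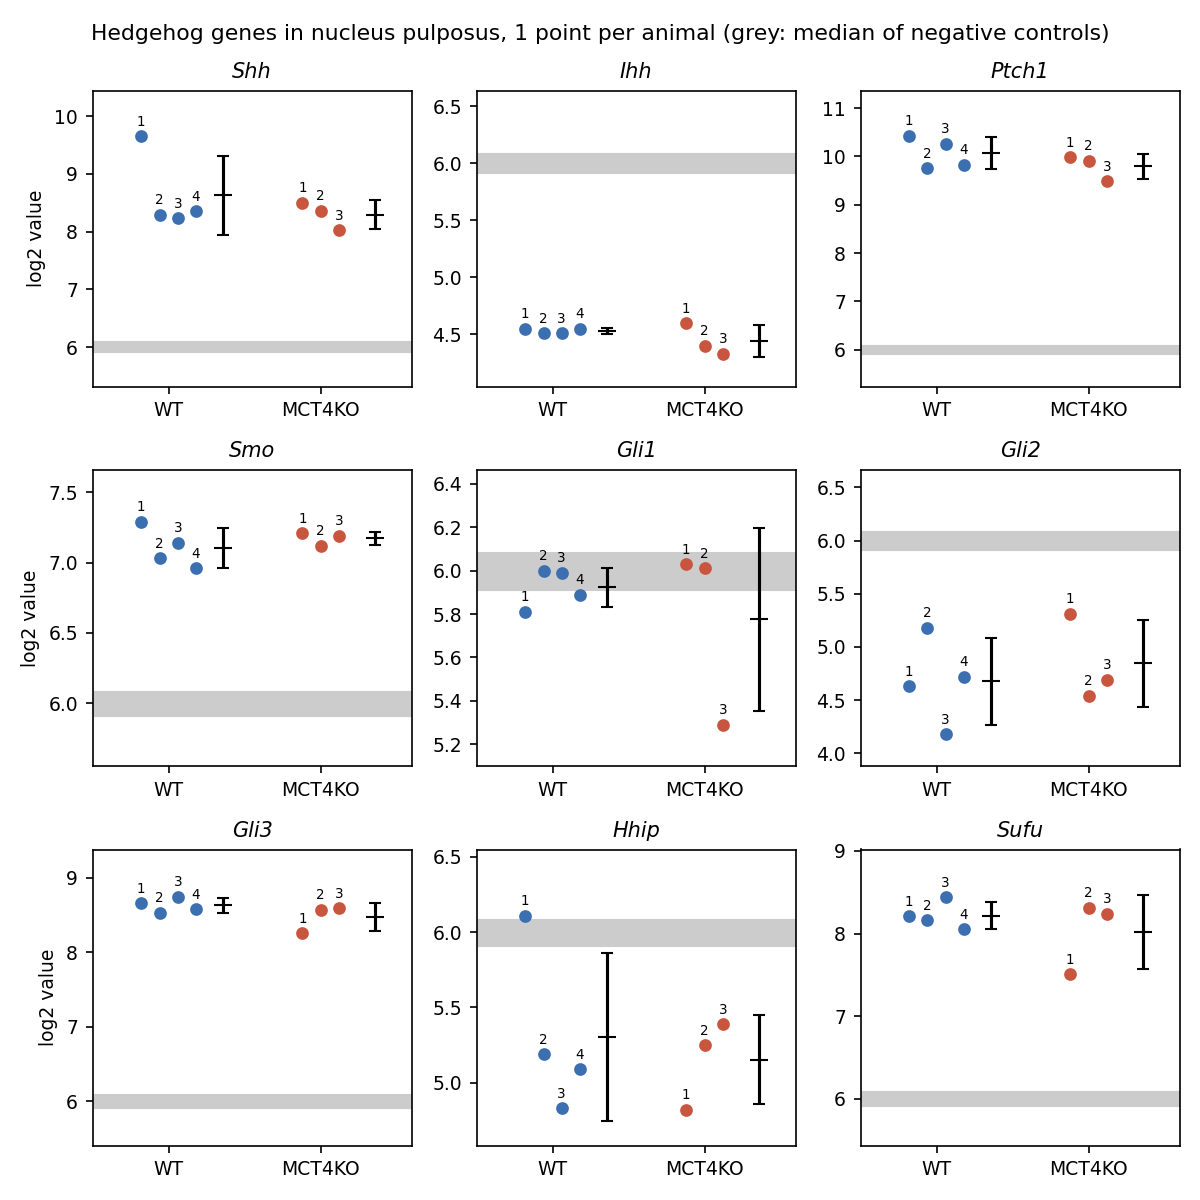
Deposited log2 value (vertical axis, a separate range for each gene) of the 9 Hedgehog genes in 4 WT (blue) and 3 MCT4KO (red) animals; digits name the animal, the black bar is the mean ± SD, and the grey band spans the control medians of the 7 arrays, 5.91 to 6.08. The groups overlap for every gene, Shh stands at 9.65 in WT 1 against 8.02 to 8.50 in the other animals, and Ihh and Gli2 lie below the band.

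Among the ligands, Shh was above the control median in every animal, and above the 95th percentile of the controls in WT 1 alone, and Ihh was at background in all. The Shh values of WT 1 to 4 were 9.65, 8.29, 8.23 and 8.35, and those of MCT4KO 1 to 3 were 8.50, 8.36 and 8.02. WT 1 stood above all others, and the remaining 6 animals lay within 0.48 of each other. The change was -0.34 ± 0.323 (SE; adjusted p = 0.69 in limma and p = 0.657 in the exact permutation test), with a 95% interval from -1.06 to 0.38. The difference in means came from WT 1: without that animal the change was 0.0013 (adjusted p = 1). Because the samples are bulk tissue, a lower value here could mean fewer cells that make a transcript or less of it per cell, which cannot be told apart.

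WT 1 was compared with the other WT animals in genes around the ligand. Its Shh value lay 1.36 above their mean of 8.29 ± 0.0621 (SD, n = 3), and 0.154% of all genes showed a difference as high or higher in WT 1. Because WT 1 was picked for its Shh value, that share is a description and not a test. Hhip, which encodes a membrane protein that captures Hedgehog ligands, was above its control median in WT 1 alone, at 6.11, so that the size of its difference from the other animals is not known. For Ptch1 the difference was 0.48, reached by 6.63% of genes, and for Gli1 it was -0.15. WT 1 was highest of the 7 animals in Shh, Ptch1, Smo and Hhip, and in 16.1% of all genes. Neutrophil and marrow markers had a mean of 6.96 in WT 1, between those of WT 2 (8.78) and of WT 3 and 4 (5.56 and 5.83), and Shh in WT 2 was 8.29. Osteoblast markers (9 genes, 7 of them at background on every array) were highest in WT 1, at a mean of 6.19 against 5.66 to 6.03 in the other WT animals. The part of these tissues in the WT 1 values was not tested.

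Ihh, the ligand of prehypertrophic cartilage that governs growth of long bones and vertebrae, read 4.51 to 4.55 in WT and 4.60, 4.40 and 4.33 in MCT4KO 1 to 3. All 7 values were below the control medians, between the 16th and the 21.7th percentile of the controls. The change was -0.08 ± 0.125 (SE; adjusted p = 0.82), which at this level gives no size. Of 10 measured markers of prehypertrophic and hypertrophic chondrocytes, 6 were at background on every array, 3 changes were above 0 and 7 below, and the median was -0.11. At an unadjusted p under 0.05 were 3 of them, all lower, against 12.7% of all genes in either direction and 6.9% lower. They were Ibsp (-1.94 ± 0.485 SE, adjusted p = 0.14 in limma), Mef2c (-0.62) and Alpl (-0.51, at background). Ibsp and Alpl were also on the list of osteoblast markers. Col10a1, the collagen of hypertrophic cartilage, read 7.02, 8.50, 7.16 and 7.83 in WT and 12.11, 9.02 and 7.18 in MCT4KO 1 to 3 (change 1.81 ± 0.920 SE; adjusted p = 0.45). MCT4KO 1, with the highest Col10a1 value, had Ihh at 4.60, also below its control median.

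At the level of the receptor and transducer, Ptch1 and Smo were above background in all 7 animals. The WT animals read 10.43, 9.75, 10.26 and 9.83 for Ptch1, and the MCT4KO animals 9.98, 9.91 and 9.49. The lowest value was that of MCT4KO 3 and the others overlapped. Its mean was 10.07 ± 0.331 (SD, n = 4) in WT and 9.79 ± 0.263 (SD, n = 3) in MCT4KO, a change of -0.28 ± 0.203 (SE; adjusted p = 0.60; 95% interval -0.73 to 0.18), the lowest adjusted p of the 9 genes. Smo read 7.29, 7.03, 7.14 and 6.96 in WT and 7.21, 7.12 and 7.19 in MCT4KO, so that every MCT4KO value fell within the WT range. Its change was 0.07 ± 0.131 (SE; adjusted p = 0.85; 95% interval -0.22 to 0.36).

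Of the transcription factors, Gli3, which mainly supplies the repressor form, was above background in every animal, Gli2, the main activator, in none, and Gli1, a target gene that amplifies the signal, lay at the control medians. For Gli3 the WT values were 8.66, 8.53, 8.75 and 8.58, and the MCT4KO values 8.26, 8.57 and 8.59. MCT4KO 1 was lowest, and the other animals of that group were inside the WT range. The change was -0.16 ± 0.137 (SE; adjusted p = 0.67; 95% interval -0.46 to 0.15).

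Gli1 read 5.81, 6.00, 5.99 and 5.89 in WT and 6.03, 6.01 and 5.29 in MCT4KO 1 to 3. It was at background in 4 of 7 animals and between the 35th and 50.9th percentile of the controls. At such values the size of a fall of Gli1, a target gene, from the WT level could not be read reliably. Its change was -0.15 ± 0.190 (SE; adjusted p = 0.78), set by MCT4KO 3. Without that animal it was 0.09 (adjusted p = 0.81). Gli2 read 4.63, 5.18, 4.18 and 4.72 in WT and 5.31, 4.54 and 4.69 in MCT4KO, at background in all 7 animals, with a change of 0.17 ± 0.251 (SE; adjusted p = 0.81).

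Neither inhibitor passed the threshold. Sufu, the cytoplasmic protein that holds GLI proteins in check, read 8.21, 8.16, 8.44 and 8.05 in WT and 7.51, 8.31 and 8.24 in MCT4KO 1 to 3. MCT4KO 1 was again the lowest, as for Gli3, and the other animals overlapped. The change was -0.19 ± 0.204 (SE; adjusted p = 0.72; 95% interval -0.65 to 0.26), and 0.06 without MCT4KO 1 (adjusted p = 0.93). Hhip read 6.11, 5.19, 4.83 and 5.09 in WT and 4.82, 5.25 and 5.39 in MCT4KO. WT 1 alone was above its control median. The change was -0.15 ± 0.283 (SE; adjusted p = 0.86; 95% interval -0.78 to 0.48), and 0.12 without WT 1 (adjusted p = 0.84).

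Among the 5 genes above background on every array, MCT4KO 3 was lowest in Shh and Ptch1 and MCT4KO 1 in Gli3 and Sufu. Over all genes MCT4KO 3 was lowest in 12.1%, and MCT4KO 1 was lowest in 19.7% and highest in 19.7%. The genes whose deviations from the group means were most like those of Shh were Gm21992, Dcdc2b and D130040H23Rik (Pearson's r of 0.987, 0.977 and 0.976 over 7 arrays), out of 9836 genes above background on every array, 84 of which had r over 0.9. The deviations of Shh are mostly that of WT 1, and all 3 genes also read highest among WT animals in WT 1. For Gli1, at background in 4 of 7 animals, the most alike were C1qtnf3, Ttc12 and Nfib (r of 0.986, 0.985 and 0.982). Of 9837 genes 65 had r over 0.9. The deviations of Gli1 are mostly that of MCT4KO 3. That all 3 genes were lowest in MCT4KO 3 therefore follows from how they were chosen.

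The wider pathway was read from 51 measured genes of 58 listed, in 4 lists: production and release of ligands, co-receptors, cilium and GLI processing, and downstream targets. Of these, 1 gene changed at an adjusted p under 0.05, the target-list gene Ccnd2, which was lower in MCT4KO. Over all genes 0.472% were called lower. The split of called genes was 92 lower and 23 higher, and 53 and 26 under quantile normalization. At an unadjusted p under 0.05 were 11 of the 51 genes (21.6%), against 12.7% of all genes. Of the 11 genes 6 were higher, against 5.76% of all genes, and 5 were lower, against 6.9%. The groups did not overlap in 8 of the 51 genes (15.7%), against 12% of all genes. The median change over the 51 was -0.01.

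**Figure D2:**
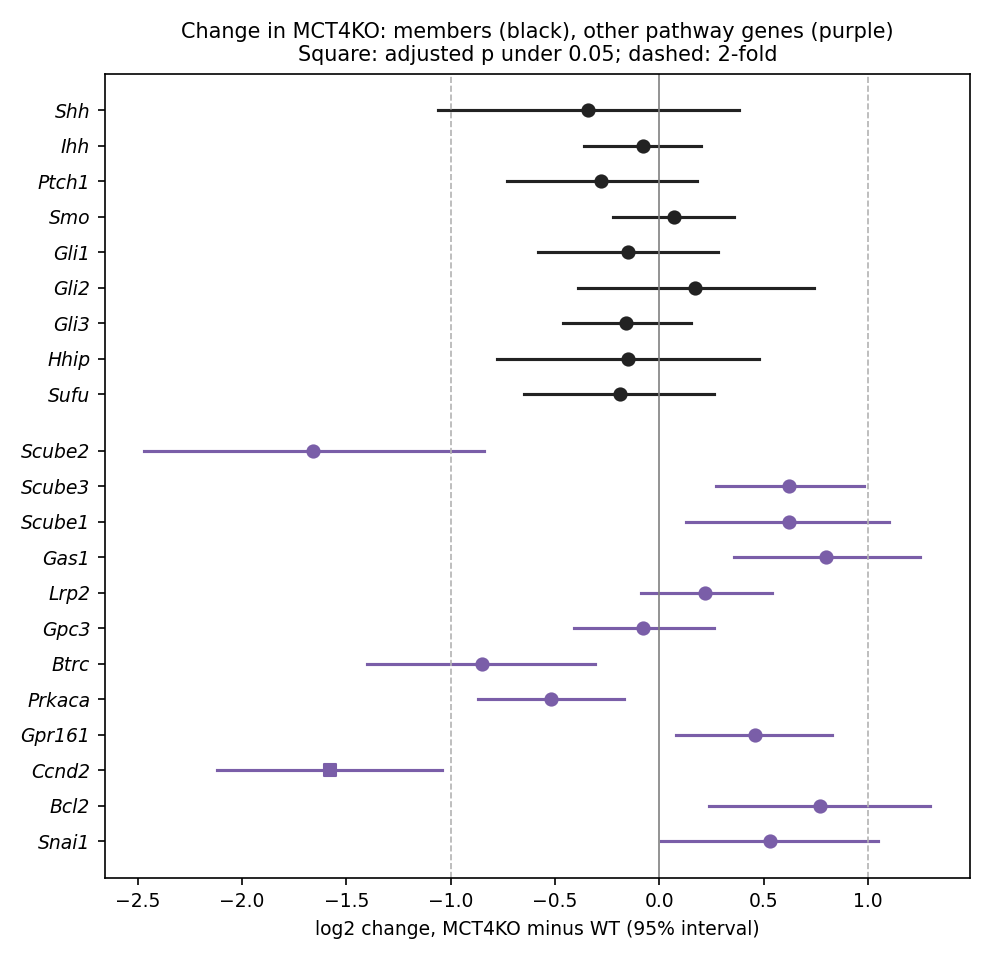
Change in log2 value, MCT4KO minus WT (horizontal axis), for the 9 Hedgehog genes (black) and 12 other pathway genes (purple); points are limma estimates, lines their 95% intervals, the square marks an adjusted p under 0.05, and dashed lines mark a 2-fold difference. The 9 black intervals all include 0, and Ccnd2, at -1.58, is the only square.

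None of 8 measured genes of ligand production and release passed the adjusted threshold. At an unadjusted p under 0.05 were 3 of the 8, against 12.7% of all genes. All 3 encode SCUBE proteins, secreted factors, of which Scube2 is known to help lipid-modified Shh leave the cell that made it. Scube2 stood at 8.36, 7.74, 6.99 and 7.33 in the WT animals and at 5.45, 5.67 and 6.72 in the MCT4KO animals. The groups did not overlap, and MCT4KO 1 and 2 were at background. The change with values below the control median raised to it was -1.38. The fitted change was -1.66 ± 0.364 (SE; adjusted p = 0.092 in limma), and the exact permutation test gave p = 0.0286, the least that it can give with 35 splits. Its 95% interval ran from -2.47 to -0.84. WT 1 was highest in Scube2 as in Shh, and without it the change was -1.41 (adjusted p = 0.14). With both WT animals of highest neutrophil and marrow markers left out (WT 1 and WT 2), it was -1.21 (adjusted p = 0.33).

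Scube3 and Scube1 lay on the other side of 0. Scube3 read 6.03, 5.69, 6.13 and 5.96 in WT and 6.67, 6.33 and 6.74 in MCT4KO, again without overlap, a change of 0.62 ± 0.159 (SE; adjusted p = 0.15). Scube1 read 5.92, 6.03, 5.61 and 5.74 in WT and 6.95, 5.98 and 6.39 in MCT4KO, with overlap, a change of 0.62 ± 0.218 (SE; adjusted p = 0.29). Both were close to the control median, which limits the sizes: with values below it raised to it, the changes were 0.52 and 0.43. Disp1, the Dispatched transporter that exports the ligand, lay above the 95th percentile of the controls in every animal (15.49 to 16.28 in WT, 15.96 to 16.41 in MCT4KO; change 0.23 ± 0.201 SE, adjusted p = 0.67). Hhat, the enzyme that palmitoylates the ligand, ranged from 6.94 to 7.27 over the 7 animals (adjusted p = 1). Dhh, the third ligand of the family, was at background on every array.

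Of 5 measured co-receptors and ligand-binding proteins none passed the adjusted threshold. An unadjusted p under 0.05 was found for 1, Gas1, against 12.7% of all genes. Gas1 encodes a surface protein that binds Shh together with Ptch1. It read 11.72, 11.71, 11.98 and 12.14 in WT and 12.52, 13.14 and 12.42 in MCT4KO 1 to 3. Every MCT4KO animal was above every WT animal, with a change of 0.80 ± 0.199 (SE; adjusted p = 0.14 in limma; p = 0.0286 in the exact permutation test; 95% interval 0.36 to 1.25). The other co-receptors of this kind, Boc and Cdon, had changes of -0.01 and -0.02 (adjusted p of 0.98 and 0.96). Gpc3, a glypican that competes for the ligand, had a change of -0.08 (adjusted p = 0.86), and the endocytic receptor Lrp2 was at background in all animals.

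Among 21 measured genes of the cilium and of GLI processing, 16 changes were below 0 and 5 above, with a median of -0.06. Over all genes 47% of changes were below 0. None passed the adjusted threshold. At an unadjusted p under 0.05, 3 were lower (Btrc, Prkaca and Ift88), against 6.9% of all genes, and 1 was higher (Gpr161), against 5.76%. Btrc, the ubiquitin ligase subunit that marks GLI proteins for processing, read 9.27, 8.99, 9.03 and 9.26 in WT and 7.65, 8.83 and 8.38 in MCT4KO 1 to 3. The groups did not overlap and MCT4KO 1 was lowest. The change was -0.85 ± 0.245 (SE; adjusted p = 0.19), and -0.54 without MCT4KO 1 (adjusted p = 0.38). Prkaca, a catalytic subunit of protein kinase A, which phosphorylates GLI proteins, ranged from 9.05 to 9.53 in WT and from 8.64 to 8.90 in MCT4KO (change -0.52 ± 0.157 SE, adjusted p = 0.22). For Prkacb, another catalytic subunit of that kinase, the change was 0.01 ± 0.159 (SE, adjusted p = 0.99). Gpr161, a ciliary receptor that opposes the pathway through protein kinase A, had a change of 0.46 ± 0.166 (SE; adjusted p = 0.30) but was at background in 5 of 7 animals, and the change was 0.06 with values raised to the control median. MCT4KO 1 had the lowest value of the 7 animals in 9 of these 21 genes, against 19.7% of all genes.

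Of 17 measured target genes 10 were at background on every array, among them Mycn, Foxf1, Foxl1, Nkx2-2 and Bmp4. Ccnd2, a D cyclin that drives entry into the cell cycle and is also controlled by other pathways, fell. Its values were 8.60, 7.95, 8.57 and 8.73 in the WT animals and 6.43, 6.95 and 7.27 in the MCT4KO animals, with no overlap and all 7 values above background. The mean was 8.46 ± 0.351 (SD, n = 4) in WT and 6.88 ± 0.424 (SD, n = 3) in MCT4KO, a change of -1.58 ± 0.239 (SE; adjusted p = 0.028 in limma; p = 0.0286 in the exact permutation test), or 0.335 times the WT level. The call held in 1 of the 7 fits that left out 1 animal, that without WT 2 (adjusted p = 0.033). It ended without WT 1 (0.068), WT 3 (0.091), WT 4 (0.08), MCT4KO 1 (0.084), MCT4KO 2 (0.07) or MCT4KO 3 (0.055), at changes of -1.35 to -1.77.

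The other target genes did not pass the adjusted threshold. Bcl2, an inhibitor of apoptosis, read 9.42, 9.48, 10.25 and 9.98 in WT and 10.59, 10.19 and 10.86 in MCT4KO, a change of 0.77 ± 0.236 (SE; adjusted p = 0.23). Snai1, a transcriptional repressor, had a change of 0.53 ± 0.231 (SE; adjusted p = 0.38). The groups overlapped in both. The median over the 17 genes was 0.04.

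**Figure D3:**
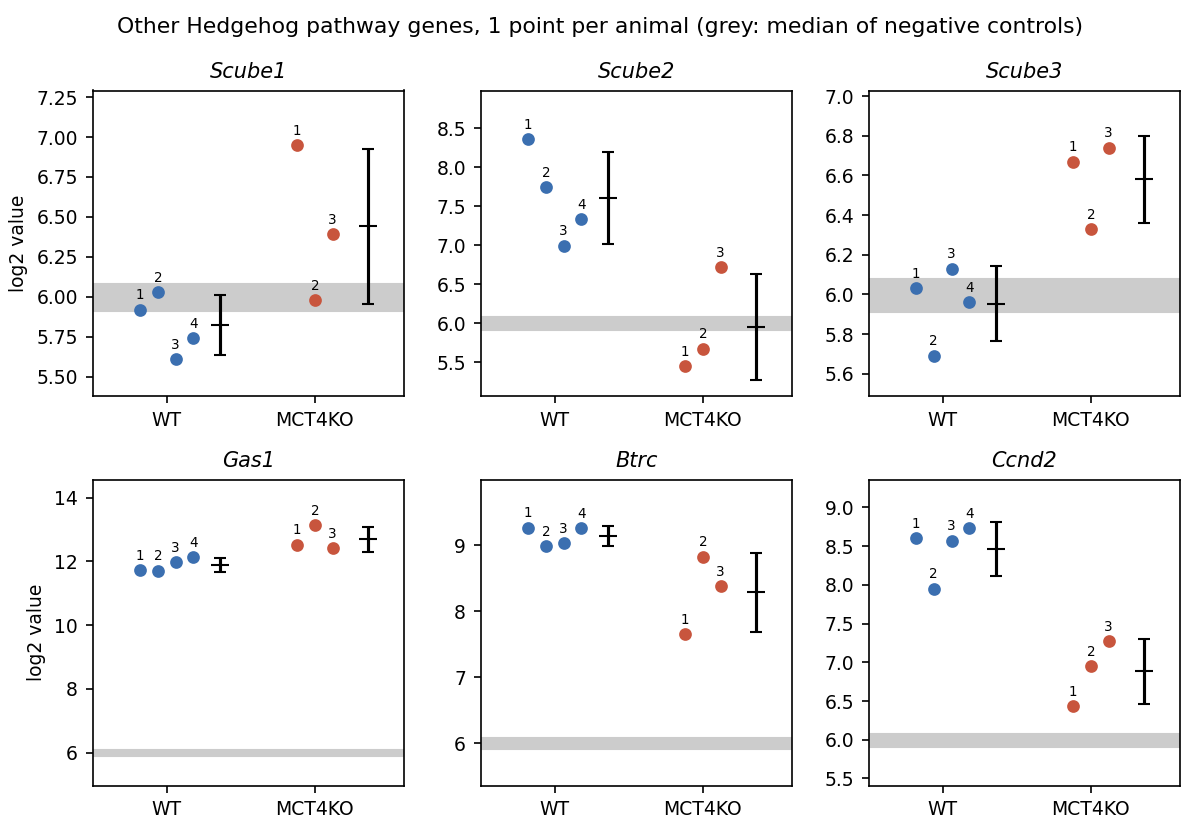
Deposited log2 value (vertical axis, a separate range for each gene) of 6 other genes of the pathway in 4 WT (blue) and 3 MCT4KO (red) animals; digits name the animal, the black bar is the mean ± SD, and the grey band spans the control medians, 5.91 to 6.08. WT and MCT4KO do not overlap for Scube2, Scube3, Gas1, Btrc and Ccnd2, while Scube1 overlaps, and Ccnd2 alone passed the adjusted threshold. The 6 genes were picked from the called genes and those of smallest p in each list, so their lack of overlap follows partly from the choice. Groups did not overlap in 8 of all 51 other pathway genes (15.7%), against 12% of all genes.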

How the data were processed

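The table deposited by the authors holds log2 values, 1 for each feature on each array. The submitters' processing notes name Affymetrix Expression Console 1.4.1. The sources used here do not give the background correction, the normalization or the genome build, and the log2 scale is read from the range of values. Of 28846 features 19572 carried 1 gene symbol. They were updated by gene identifier through RefSeq's GRCm38.p6 gene table, used for names and chromosomes only. The feature with the highest mean stood for each of 19505 genes (55 genes had several).

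MCT4KO was compared with WT over 7 arrays by lmFit and eBayes of limma 3.58.1 in R 4.3.3, on every named gene and without covariates (5 residual and 4.66 prior degrees of freedom). Two-sided p-values were adjusted by Benjamini-Hochberg over all genes, with a threshold of 0.05. Single genes also had an exact permutation test over the 35 splits into 4 and 3 animals. The fit was tested on simulated data. Precision is limited by the number of animals (median SE of a change 0.167), since arrays have no depth.

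The 9 genes, the lists and the tests were chosen with earlier results of these data known. The rule for naming genes took all 9, and from each other pathway list every called gene and otherwise the 3 with the smallest p, with Slc16a3 as the check of the labels. Ift88, Disp1, Hhat, Dhh, Boc, Cdon, Prkacb, Col10a1, Ibsp, Mef2c, Alpl, Lyz2, S100a8 and Col2a1 were named after their values were seen. So were the target and marker genes given only as at background or above the controls. For likeness, the 3 genes with the highest Pearson's r of deviations from group means were taken. Alternatives covered normalization, filters, feature choice, variance model, array weights, left-out animals and a replicate block. List genes without a measured feature were not analysed here.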

Additional observations from a re-analysis of the deposited data

Results flagged for a closer look

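Shh in WT 1 stood apart from the other WT animals. It read 9.65 and the nearest WT value was 8.35, a gap of 0.912 of the range of the 4 animals, which is above Dixon's critical value at the 95% level. It was the 1 such case among 22 genes checked, and chance gives such a gap in about 5% of groups.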

How the results depend on the processing

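The count of Hedgehog genes called was 0 under all 16 alternatives, with 5 of the 9 genes left for testing by either filter on low values and 9 in the others, and no adjusted p of a Hedgehog gene came under 0.05. The number of all genes called was 115, and 15 to 64 when 1 animal was left out, 16 without WT 1 and WT 2 and 6 with the replicate block. For the other pathway genes the count was 1 and became 0 to 1 with 1 animal left out, 0 without WT 1 and WT 2 and 0 with the replicate block. Ccnd2 then had adjusted p-values of 0.067 and 0.093. Deviations of same-numbered animals had correlations of -0.127, 0.0157 and 0.0499. In no pair did both animals correlate best with their own number. With so few animals such correlations cannot settle whether the replicate numbers pair the animals. Fewer samples or residual degrees of freedom enter these fits.

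The direction of small changes turned with single animals. With 1 animal left out, Shh ranged from -0.47 to 0.0013, Gli1 from -0.28 to 0.09, Gli2 from -0.06 to 0.34, Hhip from -0.31 to 0.12, Sufu from -0.34 to 0.06 and Gpc3 from -0.16 to 0.04. Without WT 1 and WT 2, Shh was at 0.0023 and Hhip at 0.20. Ihh, Ptch1, Smo and Gli3 kept their direction under every alternative tested. Ihh, Gli2, Gli1 and Hhip lay at or near background, and when lower values were set to the control medians their changes were -0.0079, -0.0079, 0.02 and -0.06.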
